A study of Homo sapiens with 20 samples.

Results

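The 7 genes GK, GUCY1A2, CCN3, RBP7, SPINT1, CNN3-DT and LINC00665 are shown in the study as targets of nascent RNA silencing, and they were followed here transcript by transcript. CCN3 is the current name of NOV, and the study lists CNN3-DT under an older clone name. All 40 transcripts of these genes were taken by name from the 193697 matched transcripts of 57087 genes. The study found most of these genes by searching genes raised in these same libraries, so their upward direction is not independent evidence. Which transcript carried a rise, and whether mRNA and chromatin-bound RNA (chrRNA) gave the same transcripts, did not enter that choice.

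HEK293 is a human embryonic kidney cell line, and every sample came from it or a derivative. In mRNA-seq, 3 wt samples of HEK293T cells stood against 3 samples of a Dicer knockdown line (shDicer) labelled HEK293 2B, and both had 3 µg/ml doxycycline for 7 days. chrRNA-seq covered 2 samples each of wt, shDicer, shAgo2 and shDrosha cells. shDicer and shAgo2 cells are stable lines whose shRNA is switched on by doxycycline, given for 72 h in chrRNA-seq, and Drosha shRNA was transfected as a plasmid. Whether the wt and shDrosha cells of chrRNA-seq received doxycycline is not given in the sources used here. No line with a scrambled shRNA was among these 14 samples, so the knockdown and a difference between cell lines cannot be told apart. Another 6 samples of small RNA were not analysed here.

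Dicer cuts double-stranded RNA into small RNAs, and Argonaute proteins such as Ago2 use small RNAs to find RNA of complementary sequence. The study describes fragments of tRNAs (tsRNAs) that pair with introns, which are present only while a transcript is still on chromatin or in the nucleus. Spliced and exported RNA makes up most of an mRNA library, whereas chromatin RNA also holds transcripts with introns still inside.

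Estimated counts summed to between 10216430 and 17215978 per mRNA-seq library and between 17484067 and 21553760 per chrRNA-seq library. A count of 3, used as the detection floor, was 0.174 to 0.294 CPM in mRNA-seq and 0.139 to 0.172 CPM in chrRNA-seq, for counting error only. DICER1 was lower in shDicer mRNA (log2 fold change −1.49) and AGO2 was lower in shAgo2 chrRNA (−0.62), both past the threshold. In shDicer chrRNA DICER1 was at −0.18 (adjusted p = 0.166), in shAgo2 chrRNA DICER1 was higher at 0.78, and DROSHA was at 0.07 in the libraries labelled shDrosha (adjusted p = 0.697). The summed level of 7 HEK293 markers was 141 to 238 TPM in mRNA-seq and 154 to 241 TPM in chrRNA-seq. VIM alone had 85.9 to 137 TPM in mRNA-seq and 68.3 to 200 TPM in chrRNA-seq. In mRNA-seq PAX2 was only at 0.0293 to 0.162 TPM, NEFM at 0.0477 to 1.64 TPM and NEFL at 1.92 to 74.9 TPM. The nuclear RNAs MALAT1 and NEAT1 together had 61.0 to 199 TPM in mRNA-seq and 272 to 444 TPM in chrRNA-seq, and 6 mitochondrial mRNAs had 738 to 1351 and 1965 to 3252 TPM. The part of these differences in the results below was not tested.

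Summed per gene, all 7 genes rose upon Dicer knockdown in both RNA fractions and upon Ago2 knockdown in chrRNA, and none changed past the threshold with shDrosha. In mRNA-seq 7 of 7 genes were called higher (edgeR, adjusted p under 0.001), where 15.6% of all genes tested were. In chrRNA-seq 7 of 7 were called higher in shDicer, against 11% of all genes, and 7 of 7 in shAgo2, against 12.5% (adjusted p under 0.005). With shDrosha 0 of 7 were called higher, against 1.19% of all genes (adjusted p under 0.05), 0 had an unadjusted p under 0.05 and DESeq2 also called 0. Log2 fold changes of the 7 genes ranged from 2.83 to 5.72 in mRNA, from 1.30 to 4.90 in shDicer chrRNA and from 1.47 to 3.66 in shAgo2 chrRNA. The 2 chrRNA comparisons share their 2 wt libraries, so their values are given side by side only. In bulk samples, fewer expressing cells and less RNA per cell cannot be told apart, and the p-values cover only the spread between samples, since the labels do not name separate cultures.

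**Figure D1:**
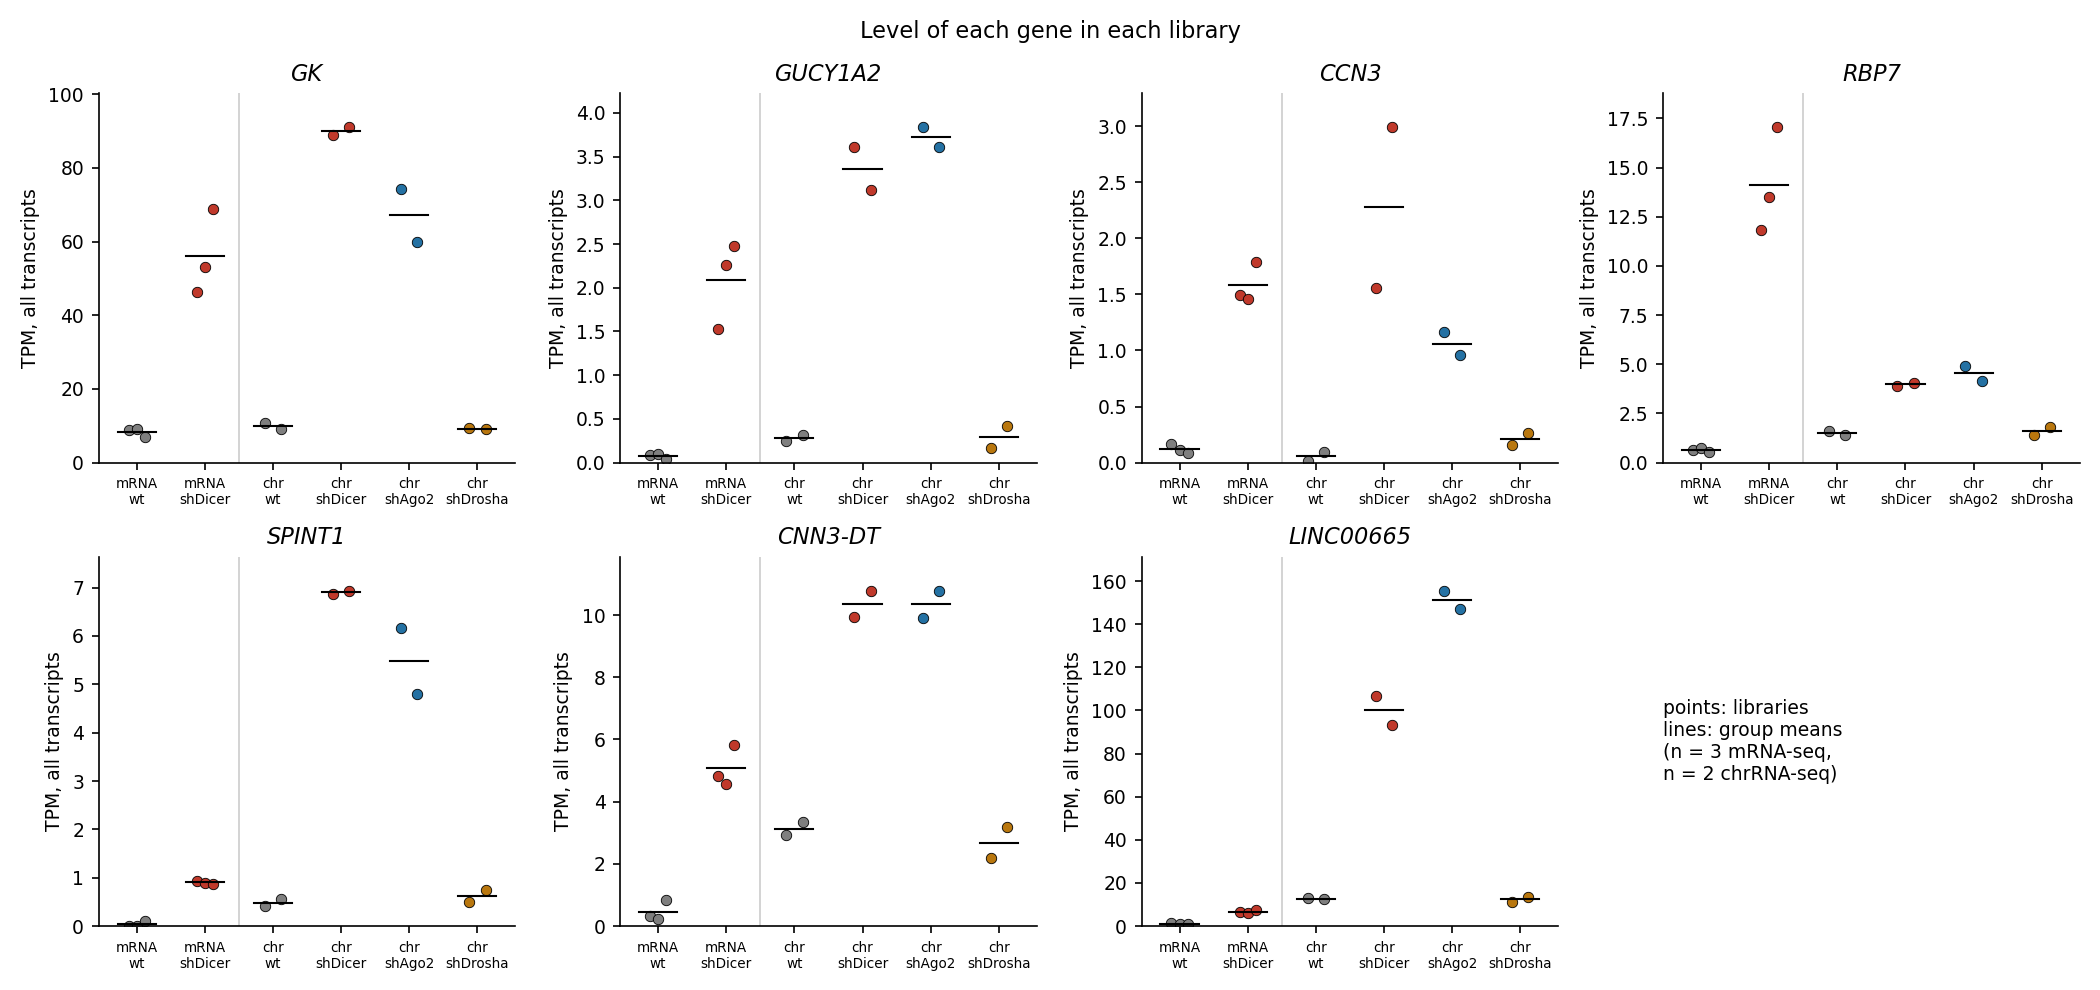
Level of each gene in TPM (a share of the library corrected for transcript length), on an axis that starts at 0, for every library, with lines at the group means. In each gene the shDicer and shAgo2 points lie above the wt points of the same RNA fraction, while the shDrosha points lie below every shDicer and shAgo2 chrRNA point.

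Of the 40 transcripts, 17 had enough counts to be tested in mRNA-seq, 27 in chrRNA-seq, 28 in either and 12 in neither. Of those 12, 7 were under 10 counts in every library. A transcript that passes the count filter only through a knockdown group had to differ, so the tallies of tested transcripts are a description. In mRNA-seq 2 of 17 were called higher in shDicer (GK-203 and GUCY1A2-203), against 0.413% of all transcripts, and 0 were called lower, against 0.215%. At an unadjusted p under 0.05 it was 16 of 17. At an adjusted p under 0.05 it was 12, against 9.4% of all transcripts, and DESeq2 called 14, against 9.2%. Leaving out any of the 6 mRNA libraries brought the edgeR call to 0. In chrRNA-seq 17 of 27 were called higher in shDicer, against 1.31% of all transcripts, and 17 of 27 in shAgo2, against 1.72%. None was called lower, against 0.71 and 1.08% of all transcripts, and DESeq2 called 20 and 21 higher, against 4.51 and 5.24%. The chrRNA calls fell to 2 and 5 in shDicer without wt replicate 1 or 2 and to 6 without either shDicer library, and to 5, 6, 4 and 4 in shAgo2 without wt replicate 1, wt replicate 2, shAgo2 replicate 1 or shAgo2 replicate 2. The fitted change was above 0 for all 17, 27 and 27 tested transcripts, with medians of 3.62, 3.32 and 3.38 on the log2 scale, against 0.0055, 0 and −0.0039 over all transcripts tested. With the 3 transcripts that had no wt count set to their lower bound, the chrRNA medians were 3.27 and 3.05.

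**Figure D2:**
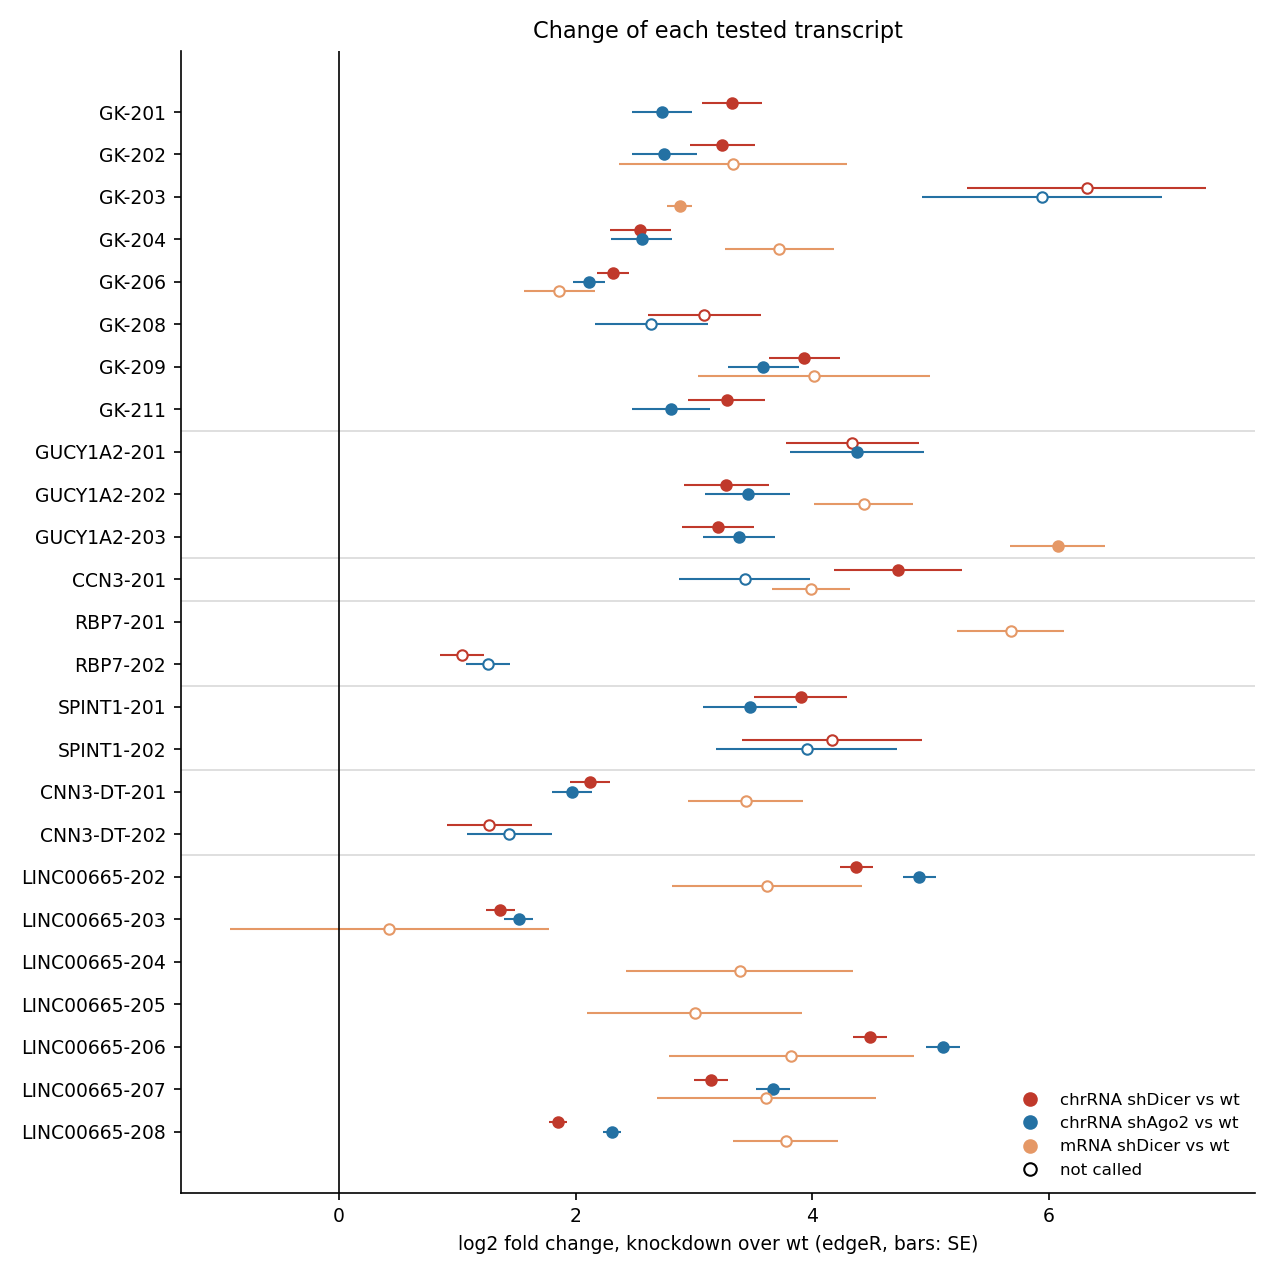
Log2 fold change over wt of each tested transcript (edgeR, bars show the standard error), with filled points for transcripts called higher and open points for the others. Transcripts with 3 or fewer wt counts are left out because their fold is only bounded, and all points shown lie to the right of 0.

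GK, glycerol kinase, phosphorylates glycerol so that it can enter lipid and sugar metabolism. The gene (ENSG00000198814) lies on chromosome X from 30653359 to 30731462 of GRCh38, on the plus strand, and 11 of its transcripts are in the files. Between 41.9 and 85.6% of the 31-base stretches of a GK transcript also occur in other genes, chiefly the copies GK4P and GK3, and GK-203 and GK-204 have no stretch of their own. The division of GK counts among transcripts is therefore uncertain.

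The full-length coding transcript GK-203, with 20 exons, had 3.54, 4.69 and 3.68 TPM in wt mRNA and 19.9, 21.0 and 26.2 TPM in shDicer mRNA. All 3 shDicer libraries were above the wt libraries, a log2 fold change of 2.88 ± 0.11 (SE, n = 3 per group, edgeR adjusted p = 0.000279). GK-203 carried 38.5% of the mRNA difference in TPM, followed by GK-204 with 23.4%, GK-209 with 18.2% and GK-202 with 11.6%. Of these, GK-204 (log2 fold change 3.72, adjusted p = 0.00502), GK-209 (4.01, 0.0425) and GK-202 (3.33, 0.0694) did not pass.

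In TPM, GK-202 and GK-201 carried the most of the rise on chromatin, whereas in counts GK-206 and GK-203 did. GK-202, which has 5 exons and 26.4% of its bases in introns of the reference transcript, had 3.73 and 2.14 TPM in wt, 24.4 and 29.5 in shDicer, 22.1 and 17.2 in shAgo2 and 2.38 and 2.60 with shDrosha. GK-201, a transcript of 2 exons with 42.9% of its bases in introns, had 1.90 and 2.91 TPM in wt, 25.8 and 20.2 in shDicer, 17.5 and 13.5 in shAgo2 and 2.25 and 2.55 with shDrosha. Both were high in every shDicer and shAgo2 library and without overlap with wt or shDrosha. GK-202 rose by 3.24 ± 0.28 in shDicer and 2.75 ± 0.28 in shAgo2 (log2 fold change ± SE, n = 2 per group, adjusted p = 0.00143 and 0.00208), and GK-201 by 3.32 ± 0.26 and 2.73 ± 0.26 (0.00105 and 0.00167). They carried 29.9 and 25.7% of the shDicer difference in TPM and 29.1 and 22.8% of the shAgo2 difference, whereas GK-203 carried 5.96 and 6.63%. TPM weighs short transcripts up. Of the difference in counts scaled to the library total (CPM), GK-206 carried 25.7% in shDicer and 27.8% in shAgo2, GK-203 22.2 and 22.3%, GK-209 20.2 and 20.2%, GK-202 8.49 and 7.47% and GK-201 7.40 and 5.98%. In mRNA GK-203 led in CPM as in TPM, with 56.0%, and GK-201 was at 0.216, 0 and 0.206 TPM in wt and 0.548, 1.50 and 2.18 TPM in shDicer.

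GK-203 itself was nearly absent from wt chromatin, at 0 and 0.125 TPM, and had 3.33 and 6.37 TPM in shDicer and 3.33 and 4.40 TPM in shAgo2. Its fitted change of 6.32 ± 1.01 and 5.94 ± 1.01 did not pass (adjusted p = 0.0113 and 0.0119). Besides GK-201 and GK-202, another 4 GK transcripts were called higher on chromatin in both knockdowns. They were GK-204 (2.55 in shDicer and 2.56 in shAgo2), GK-206 (2.31 and 2.11), GK-209 (3.93 and 3.58) and GK-211 (3.27 and 2.81), all log2 fold changes. GK-208, annotated for nonsense-mediated decay, was at 3.09 and 2.64 and did not pass (0.0103 and 0.0148).

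GUCY1A2 encodes an alpha subunit of soluble guanylate cyclase, the enzyme that makes cGMP in response to nitric oxide. The gene (ENSG00000152402) lies on chromosome 11 from 106674019 to 107018476 on the minus strand and has 3 transcripts, which differ in the exons they join. The first 2 joins shown separate GUCY1A2-203 from GUCY1A2-201, and the third is in GUCY1A2-202 and not in GUCY1A2-203, with the first bases of the next exon in capitals.
GUCY1A2-203, exon 6 to 7: ggaagaccgattcagATGAGGATAGGAATT
GUCY1A2-201, exon 6 to 7: ggaagaccgattcagCCCCAGAGGAGTGAA
GUCY1A2-202, exon 4 to 5: gaaaataaagacaagAGCAAGCATGTCACC
The first 2 leave the same exon end at position 106776439 and enter different exons, at 106708666 and 106746643, and the third joins 106939460 to 106936712. GUCY1A2-203 is 16205 bases long in the files, against 3047 for GUCY1A2-201 and 2532 for GUCY1A2-202.

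The long transcript GUCY1A2-203 had 0.0285, 0.0269 and 0.00754 TPM in wt mRNA and 0.921, 1.08 and 1.33 TPM in shDicer mRNA. No shDicer library came near the wt range, and the log2 fold change was 6.07 ± 0.40 (SE, n = 3, edgeR adjusted p = 0.000932). On chromatin it had 0.0259 and 0.0360 TPM in wt, 0.232 and 0.313 in shDicer, 0.336 and 0.299 in shAgo2 and 0.0413 and 0.0380 with shDrosha. It was higher in both knockdowns, without overlap, by 3.20 ± 0.30 and 3.38 ± 0.30 (n = 2, adjusted p = 0.00212 and 0.00145). The mRNA change minus the chrRNA change was 2.96 ± 0.59 on the log2 scale and did not pass (adjusted p = 0.0532).

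GUCY1A2-201 was listed at 0 in all 6 mRNA libraries. On chromatin it had 0.0799 and 0.0478 TPM in wt, 1.50 and 1.11 in shDicer and 1.29 and 1.43 in shAgo2. All 4 knockdown libraries were above wt, and the change of 4.38 ± 0.56 passed in shAgo2 (adjusted p = 0.00469) while 4.34 ± 0.56 in shDicer did not (0.00571). GUCY1A2-202 rose on chromatin by 3.27 ± 0.36 and 3.45 ± 0.36 (0.00331 and 0.00232), and in mRNA it was at 4.43 ± 0.42 and did not pass (0.0023). Of the gene's difference in TPM, GUCY1A2-203 carried 54.0% in mRNA, 7.84% in shDicer chrRNA and 8.32% in shAgo2 chrRNA, and GUCY1A2-201 carried 0, 40.4 and 37.6%. Of the difference in CPM it was 88.8, 34.9 and 36.3% for GUCY1A2-203 and 0, 31.7 and 29.3% for GUCY1A2-201. These shares, and the 0 of GUCY1A2-201 in mRNA, rest on the uncertain division of counts.

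RBP7 encodes a cellular retinoid-binding protein. It lies on chromosome 1 from 9997206 to 10016021 on the plus strand (ENSG00000162444), and both of its transcripts are in the files. RBP7-201 is the coding transcript, and RBP7-202, annotated for nonsense-mediated decay, takes in an additional exon after exon 1. Of the short sequence stretches compared as for GK, 4.87% in RBP7-201 and 21.9% in RBP7-202 are their own. In RBP7-202 9.99% of the stretches also occur in other genes, against 0% in RBP7-201. The division of RBP7 counts between RBP7-201 and RBP7-202 is therefore uncertain.

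In mRNA-seq RBP7-201 had 0.461, 0.346 and 0.0740 TPM in wt and 11.8, 13.2 and 16.7 TPM in shDicer. RBP7-202 had 0.179, 0.409 and 0.458 TPM in wt and 0, 0.357 and 0.339 TPM in shDicer. The shDicer libraries were far above wt for RBP7-201 and overlapped with wt for RBP7-202. RBP7-201 had a log2 fold change of 5.67 ± 0.45, short of the mRNA threshold of 0.001 (adjusted p = 0.0014), although the gene total did at 4.33. RBP7-202 had too few mRNA counts to be tested.

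On chromatin RBP7-202 was the larger part of the gene's TPM in all 8 libraries. RBP7-202 had 1.62 and 1.39 TPM in wt, 3.23 and 2.74 in shDicer, 3.82 and 3.25 in shAgo2 and 1.42 and 1.80 with shDrosha. RBP7-201 was at 0 in both wt and both shDrosha libraries and had 0.668 and 1.30 TPM in shDicer and 1.09 and 0.903 TPM in shAgo2. Against the floor of 3 counts per wt library, RBP7-201 was at least 4.57-fold higher in shDicer and at least 4.32-fold higher in shAgo2, with neither past the threshold (adjusted p = 0.0404 and 0.0361). RBP7-202 was at log2 fold changes of 1.04 ± 0.19 and 1.26 ± 0.19, which did not pass either (0.0164 and 0.00738). The gene total passed at 1.30 and 1.47. RBP7-202 made up 100% of the gene's TPM in wt, 67.8 to 82.9% in shDicer and 77.8 to 78.2% in shAgo2. These shares, and the 0 of RBP7-201 in wt, rest on the uncertain division of counts between RBP7-201 and RBP7-202. The median log2 fold change of the 50 nearest tested genes was 0.75 in mRNA, 0.50 in shDicer chrRNA and 0.42 in shAgo2 chrRNA, and its part in the rise of RBP7 was not tested.

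SPINT1 encodes HAI-1, a membrane-bound inhibitor of serine proteases such as the activator of hepatocyte growth factor. The gene (ENSG00000166145) lies on chromosome 15 from 40844018 to 40858207 on the plus strand, and 11 transcripts are in the files. The study used a synthetic tsRNA against SPINT1 with the sequence cgagucucgguggaaccuuugu, and its assay at the target site spans 40848086 to 40848300, in an intron that none of the 11 transcripts holds. No transcript holds the whole product, and partial overlap was not examined, so the deposited transcript values give no reading of that assay.

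Wild-type mRNA held hardly any SPINT1, at 0, 0 and 0.112 TPM for the gene, against 0.927, 0.900 and 0.878 TPM in shDicer. With 2 counts in the 3 wt libraries together and 158 in shDicer, the ratio was 67.8 (95% counting interval 18.5 to 565). No SPINT1 transcript had enough mRNA counts to be tested. SPINT1-202 had no wt count and was at least 8.10-fold higher, and SPINT1-201 had 1 wt count and 33 in shDicer, a ratio of 28.3 (4.74 to 1153).

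On chromatin SPINT1-201, a coding transcript of 11 exons, had 0.0761 and 0.113 TPM in wt, 1.49 and 1.30 in shDicer, 1.36 and 0.747 in shAgo2 and 0.0924 and 0.159 with shDrosha. It was the only one of the 5 tested SPINT1 transcripts to be called higher, by 3.90 ± 0.39 in shDicer and 3.47 ± 0.39 in shAgo2 (adjusted p = 0.00253 and 0.00308). SPINT1-202 had 0.149 and 0.0597 TPM in wt, 1.35 and 2.29 in shDicer and 1.34 and 1.88 in shAgo2, and its changes of 4.17 ± 0.76 and 3.95 ± 0.76 did not pass (0.0173 and 0.0177). The knockdown libraries lay above wt for both transcripts. SPINT1-201 and SPINT1-202 can hardly be separated from the other coding transcripts, since 1.06 and 0.0678% of their 31-base stretches are their own. The counts of SPINT1-203, SPINT1-204 and SPINT1-210 were 2 or fewer in wt, and none passed. In TPM the rise was spread widely, with SPINT1-202 carrying 26.7% of the shDicer difference in TPM, SPINT1-201 20.2%, SPINT1-210 15.5% and SPINT1-206 12.3%. In shAgo2 these 4 carried 30.2, 19.2, 7.24 and 5.83%, with SPINT1-208 at 16.2% and SPINT1-204 at 14.3%. In CPM it was less spread, with SPINT1-202 and SPINT1-201 at 41.4 and 39.3% in shDicer and 44.9 and 35.9% in shAgo2.

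CCN3 encodes a secreted matricellular protein of the CCN family, and 2 transcripts of it (gene ENSG00000136999, chromosome 8) are in the files. The coding transcript CCN3-201 had 0.164, 0.116 and 0.0870 TPM in wt mRNA and 1.37, 1.46 and 1.79 TPM in shDicer mRNA. All shDicer libraries were above wt, and the log2 fold change was 3.99 ± 0.33, short of the mRNA threshold (adjusted p = 0.00155). On chromatin it had 0.0144 and 0.0685 TPM in wt, 1.06 and 1.25 in shDicer, 0.434 and 0.525 in shAgo2 and 0.0688 and 0.0475 with shDrosha. With estimated counts of 1 and 4.71 in wt, it rose by 4.72 ± 0.54 in shDicer (0.00388). Over 12 alternatives this ranged from 3.96 (without wt replicate 1) to 6.26 (without wt replicate 2) and did not pass in 6, with adjusted p up to 0.0253, among them all 4 fits without a chrRNA wt or shDicer library. In shAgo2 the change of 3.43 ± 0.55 did not pass (0.00997). The direct comparison of shDicer with shAgo2 gave 1.29 ± 0.41 and did not pass (0.285).

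CCN3-202, a short transcript with a retained intron, failed the count filter in both experiments. It had 0.495 and 1.75 TPM in shDicer chrRNA and 0.732 and 0.4304 TPM in shAgo2 chrRNA, against 0 and 0.0287 TPM in wt, with no rounded count in either wt library. That is at least 4.13-fold higher in shDicer and at least 2.00-fold higher in shAgo2, without a test. It carried 49.9 and 56.4% of the gene's difference in TPM on chromatin and 2.70% in mRNA. Of the difference in CPM it carried 13.2, 16.3 and 0.471%.

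CNN3-DT is a long non-coding RNA transcribed divergently from CNN3, on chromosome 1 from 94927361 to 94963616 (ENSG00000235501, plus strand), with 3 of the 10 transcripts in GENCODE 44 present in the files. CNN3-DT-201 had 0.340, 0.229 and 0.749 TPM in wt mRNA and 3.44, 3.43 and 4.52 TPM in shDicer mRNA. On chromatin it had 1.77 and 1.50 TPM in wt, 6.57 and 7.12 in shDicer, 6.20 and 6.40 in shAgo2 and 1.32 and 1.73 with shDrosha. Knockdown and wt libraries did not overlap in either fraction. It rose on chromatin by 2.12 ± 0.17 in shDicer and 1.97 ± 0.17 in shAgo2 (adjusted p = 0.00121 and 0.00129), and in mRNA its 3.44 ± 0.49 did not pass (0.00752). This transcript carried most of the rise in both fractions, 72.9% in mRNA, 72.1% in shDicer chrRNA and 64.8% in shAgo2 chrRNA.

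CNN3-DT-202 gave a different picture. In mRNA it had no count in any wt library and 1.18, 0.787 and 1.11 TPM in shDicer, at least 3.53-fold higher. On chromatin it was already present in wt, at 1.16 and 1.84 TPM, with 3.37 and 3.66 TPM in shDicer and 3.69 and 4.38 TPM in shAgo2. The chrRNA changes of 1.27 ± 0.36 and 1.44 ± 0.36 did not pass (0.0668 and 0.0401). The difference between its mRNA and chrRNA effects passed (adjusted p = 0.0434), but the size of the fitted difference depends on the prior count, because the mRNA wt libraries hold no count.

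LINC00665 is a long intergenic non-coding RNA on chromosome 19 (ENSG00000232677, 36259540 to 36331770, minus strand), and 8 of the 35 transcripts in GENCODE 44 are in the files. The gene had 0.895 to 1.22 TPM in mRNA wt and 12.6 and 12.9 TPM in chrRNA wt. TPM is a share of each library, and the experiments differ in kit and wt cell label, so these values do not compare amounts. Between 7.72 and 29.5% of the 31-base stretches of the LINC00665 transcripts occur in other genes. LINC00665-201 and LINC00665-206 have no stretch of their own, and LINC00665-203 has 6.51%. The division of LINC00665 counts among transcripts is therefore uncertain. The median change of the 50 nearest tested genes was 1.02 in mRNA, 1.01 in shDicer and 1.07 in shAgo2 chrRNA on the log2 scale, and its part in the rise was not tested.

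LINC00665-202, the most raised in TPM, had 1.46 and 1.58 TPM in wt chrRNA, 33.3 and 27.4 in shDicer, 47.6 and 41.6 in shAgo2 and 2.18 and 2.36 with shDrosha. LINC00665-205 had no count in wt or shDrosha chrRNA, 8.38 and 9.05 TPM in shDicer and 19.1 and 19.6 TPM in shAgo2. LINC00665-208, the leading transcript of wt chrRNA, had 5.16 and 5.07 TPM in wt, 18.6 and 17.2 in shDicer, 25.5 and 24.6 in shAgo2 and 4.38 and 5.67 with shDrosha. For all 3 the knockdown libraries stood clear of wt, and shAgo2 was above shDicer. LINC00665-202 rose by 4.37 ± 0.14 in shDicer and 4.90 ± 0.14 in shAgo2 (adjusted p = 0.000105 and 7.69e-05), LINC00665-208 by 1.85 ± 0.08 and 2.31 ± 0.08 (0.000172 and 9.11e-05), and LINC00665-205 was at least 121-fold and at least 264-fold higher (0.00058 and 0.000337).

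LINC00665-206 went from 0.760 and 0.693 TPM in wt chrRNA to 16.9 and 14.9 in shDicer and 25.8 and 23.8 in shAgo2, a rise of 4.49 ± 0.14 and 5.10 ± 0.14. LINC00665-207 (3.14 ± 0.14 and 3.67 ± 0.14) and LINC00665-203 (1.36 ± 0.12 and 1.52 ± 0.12) were called higher as well, so that all 6 tested LINC00665 transcripts rose in both knockdowns. The spread of these changes moved the make-up of the gene. LINC00665-208 fell from 40.0 and 40.1% of the gene's TPM in wt to 17.4 and 18.4% in shDicer and 16.4 and 16.7% in shAgo2. LINC00665-202 took 29.4 and 31.2% in shDicer and 28.3 and 30.6% in shAgo2, after 11.3 and 12.5% in wt. In CPM other transcripts led. Of the difference in CPM, LINC00665-207 carried 31.8% in shDicer and 30.5% in shAgo2, and LINC00665-208 24.7 and 24.2%. LINC00665-206 carried 17.7 and 17.9%, LINC00665-202 10.8 and 10.2% and LINC00665-205 8.95 and 12.6%.

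In mRNA the LINC00665 transcripts were low, and none of the 7 tested passed. LINC00665-208 had 0.110, 0.118 and 0.0409 TPM in wt and 0.908, 0.941 and 1.07 TPM in shDicer, without overlap, at 3.77 ± 0.45 (adjusted p = 0.00439). Its mRNA change exceeded its chrRNA change by 1.99 ± 0.36 on the log2 scale, which passed the test of that difference (adjusted p = 0.035). LINC00665-205 differed between the fractions the other way (0.0478), with 0.116, 0.00546 and 0.0934 TPM in wt mRNA and 0.323, 0.645 and 0.484 TPM in shDicer mRNA. LINC00665-206, LINC00665-204 and LINC00665-202 carried 25.4, 24.6 and 22.6% of the mRNA difference in TPM, while in CPM LINC00665-208 and LINC00665-206 led with 31.5 and 31.1%. LINC00665-204 was at 0 in 6 of the 8 chrRNA libraries.

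**Figure D3:**
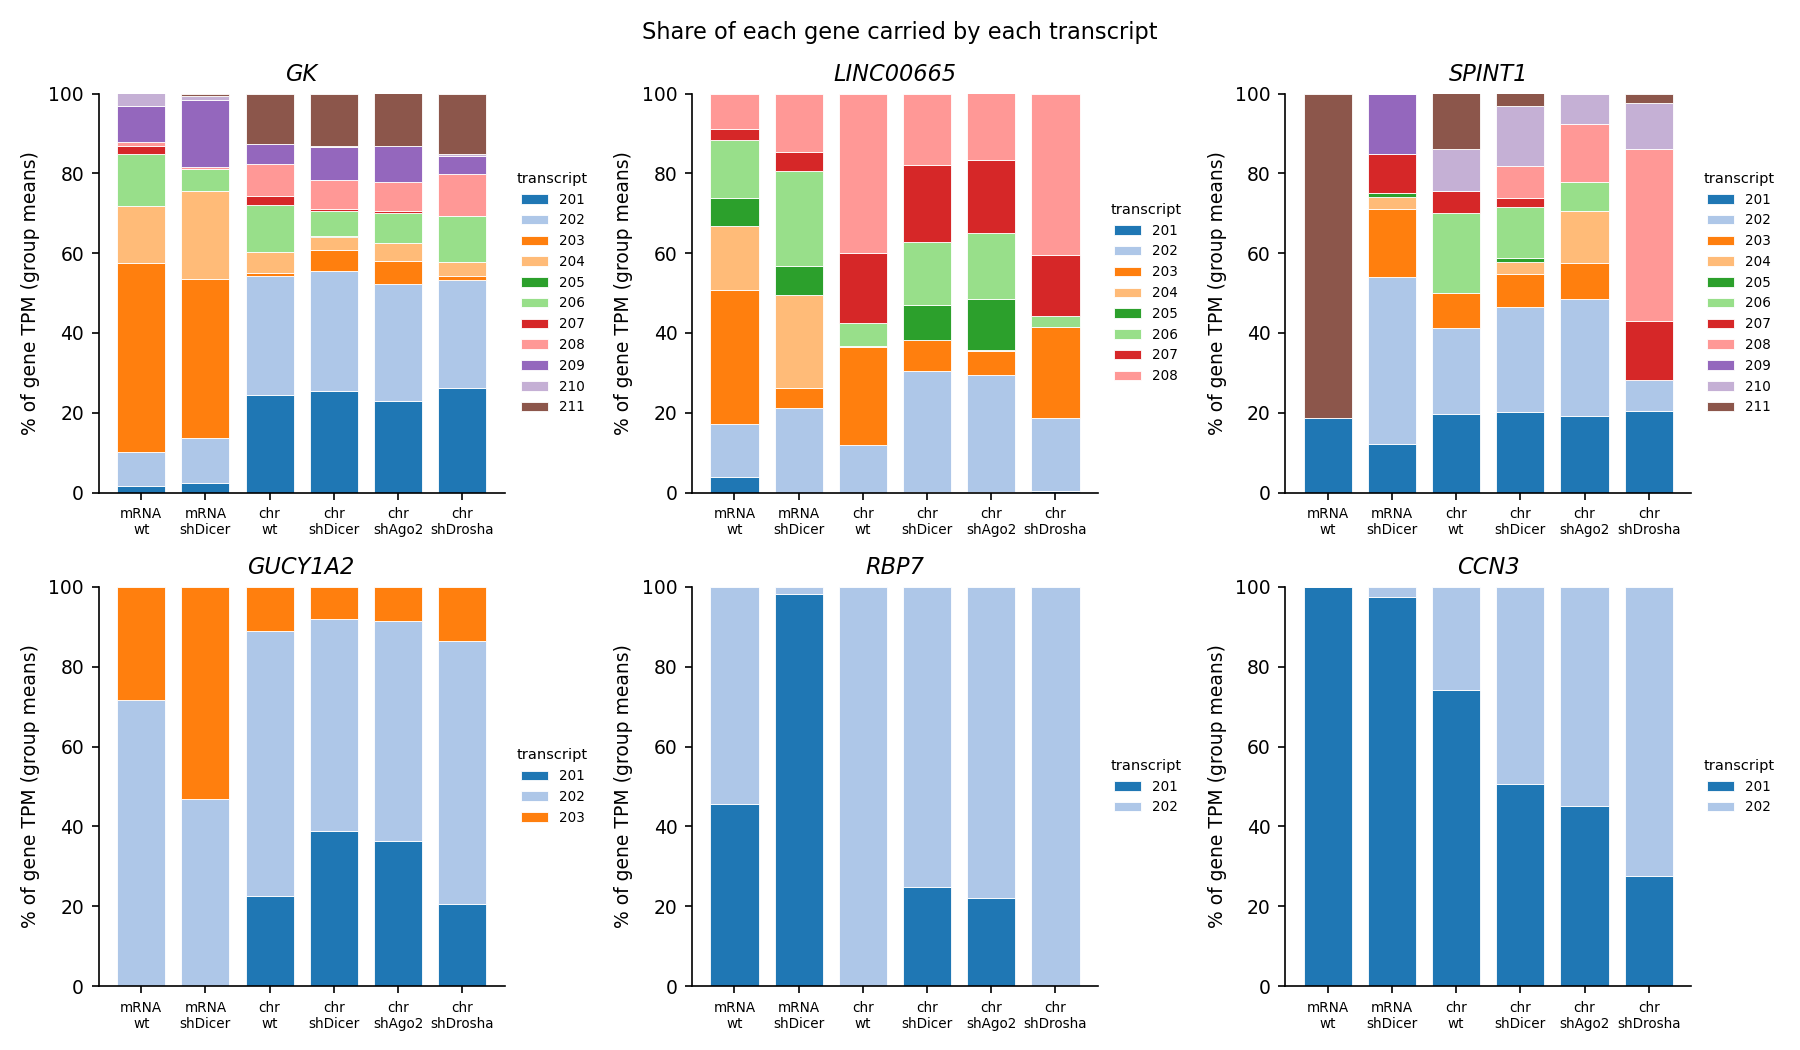
Share of each gene's TPM carried by each transcript, in percent of the sum of group means, stacked from 0 to 100, for 6 of the genes. The colours change between the mRNA and chrRNA bars in GK, GUCY1A2, RBP7 and CCN3, within chrRNA LINC00665-208 shrinks and LINC00665-202 grows from wt to shDicer and shAgo2, and the mRNA wt bar of SPINT1 rests on 2 counts.

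Whether the transcripts of a gene changed unequally was tested directly, by setting each transcript's change against the rest of its gene (diffSpliceDGE, a Simes test per gene, adjusted p under 0.05). In chrRNA the usage changed in 2 of 6 testable genes in shDicer, against 6.16% of all genes, and in 2 of 6 in shAgo2, against 6.67%. The genes were LINC00665 (adjusted p = 7.11e-13 and 3.57e-14) and GK (0.00134 and 0.00163). In LINC00665 the transcripts LINC00665-205, LINC00665-202 and LINC00665-206 rose more than the rest of the gene, by 1.71 and 1.69 log2 units for LINC00665-202 and 1.82 and 1.89 for LINC00665-206, whereas LINC00665-203 was at −1.30 and −1.69 units relative to the rest and LINC00665-208 at −0.81 and −0.91. In GK the transcript concerned was GK-203, with 3.14 and 3.08 log2 units more than the rest. RBP7 did not pass (0.0622 and 0.0826), nor did GUCY1A2, SPINT1 and CNN3-DT, and CCN3 could not be tested with 1 transcript above the filter. The call on LINC00665 held without each library in turn, and that on GK did not. Without wt replicate 1 the adjusted p of GK was 0.407 in shDicer and 0.438 in shAgo2, without shDicer replicate 2 it was 0.0541, and without shAgo2 replicate 2 it was 0.163. By limma's diffSplice GK did not pass either, at 0.166 and 0.21.

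In mRNA the usage changed in 0 of 3 testable genes (GK, GUCY1A2 and LINC00665), against 3.4% of all genes, with 0 at an unadjusted p under 0.05 and 1 by limma's diffSplice, LINC00665 (adjusted p = 0.00336). With shDrosha it changed in 0 of 6, against 3.28%, with 1 at an unadjusted p under 0.05 (LINC00665) and 0 by limma. At the level of single transcripts shDrosha gave 0 of 27 called higher and 0 called lower, against 0.0028 and 0.00466% of all transcripts. At an unadjusted p under 0.05 there were 2, LINC00665-202 at 0.65 and LINC00665-206 at −1.02 on the log2 scale, and DESeq2 called 0 higher, against 0.512%.

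Transcripts with at least 10% of their bases in introns of the gene's reference transcript were grouped, a class set after the values had been seen. They are GK-201, GK-202 and GK-211, CCN3-202, RBP7-202, and SPINT1-203, SPINT1-206 and SPINT1-208, and LINC00665 was left out because between 46.3 and 100% of the bases of its other transcripts lie outside the reference transcript. CNN3-DT-203, with 47.0%, also meets the rule but was not followed, since it was at 0 in all 8 chrRNA libraries and had at most 2.6 counts in mRNA, at 0.185 to 0.344 TPM in shDicer. In GK this class held 2.94 to 17.8% of the gene's TPM in the 6 mRNA libraries and 64.9 to 70.4% in the 8 chrRNA libraries, with no overlap. In counts, which do not favour short transcripts, it was 0.288 to 2.29% and 17.1 to 24.5%. The GK shares in chrRNA overlapped between wt and knockdown, while the amount went from 5.88 and 7.29 TPM in wt to between 61.1 and 62.7 TPM in shDicer and between 38.9 and 48.9 TPM in shAgo2.

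The class carried 15.0% of the GK difference in TPM in mRNA, 68.9% in shDicer chrRNA and 65.1% in shAgo2 chrRNA, and 1.79, 22.1 and 19.0% of the difference in CPM. For RBP7 it was −0.87, 60.1 and 67.1% in TPM and −0.81, 70.1 and 75.6% in CPM, and for SPINT1 17.9, 28.9 and 30.97% in TPM and 7.83, 7.63 and 8.01% in CPM. The chrRNA and mRNA libraries also differ in kit, induction time and wt cell label, so the RNA fraction cannot be told apart from these.

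**Figure D4:**
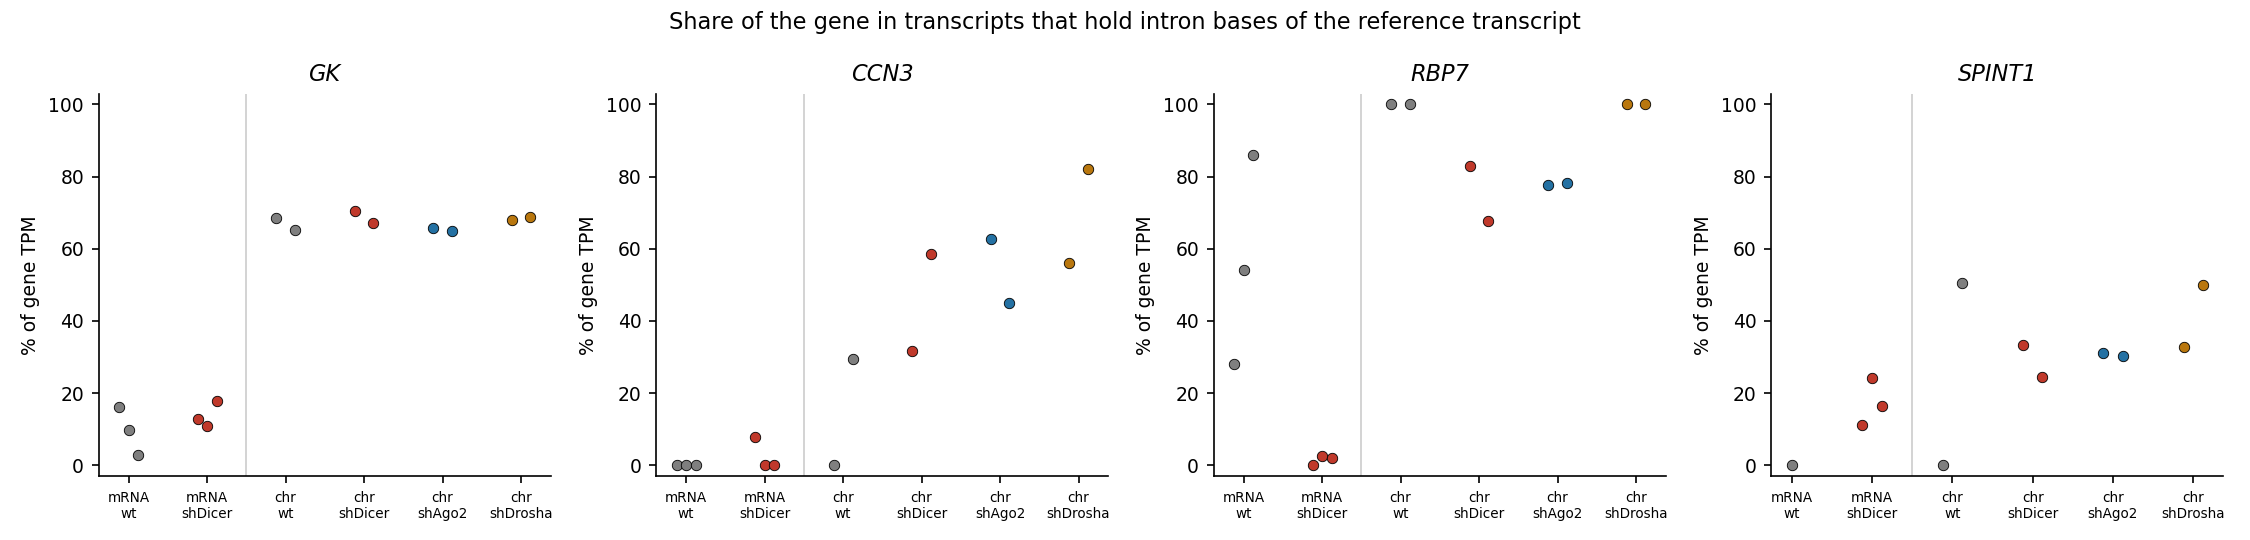
Percent of each gene's TPM in transcripts with at least 10% of their bases in introns of the reference transcript, 1 point per library, for GK, CCN3, RBP7 and SPINT1. In GK the mRNA points lie between 2.94 and 17.8% and the chrRNA points between 64.9 and 70.4%, whereas in SPINT1 and CCN3 the points of a group are spread widely, and SPINT1 wt libraries without a count have no point.

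Set directly against each other, shDicer and shAgo2 gave 0 of 27 transcripts called in either direction by edgeR, where 0.0168% of all transcripts were. At an unadjusted p under 0.05 there were 7, of which 2 were higher and 5 lower in shDicer, and DESeq2 called 4, against 1.08% of all transcripts. These 4 were LINC00665-205, LINC00665-206, LINC00665-207 and LINC00665-208, all lower in shDicer. The 6 LINC00665 transcripts had log2 differences of −0.16 to −1.12, lower in shDicer than in shAgo2, with adjusted p from 0.0862 to 0.665. For LINC00665-205 the difference was −1.12 ± 0.14 (adjusted p = 0.088), and for GK-201 it was 0.59 ± 0.21 (0.345). A missed threshold does not show that the knockdowns act alike at these transcripts.

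The shDicer effect was also compared between mRNA and chrRNA in 1 fit over the 14 libraries. It differed for 3 of 29 tested transcripts, against 0.816% of all transcripts (edgeR, adjusted p under 0.05), and 6 had an unadjusted p under 0.05. The 3 were CNN3-DT-202 and LINC00665-208, with the larger change in mRNA, and LINC00665-205, with the larger change on chromatin. For GK-202 the difference was 0.16 ± 0.96 and for GK-209 0.14 ± 1.26 log2 units (adjusted p = 1 for both), so that their wide standard errors leave room for differences of either sign. Leaving out any chrRNA wt or shDicer library brought the count of 3 to 0, and leaving out mRNA shDicer replicate 1 or 3 brought it to 1.

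The qRT-PCR assays of the study can read only some transcripts of a gene, so their primers were placed on the GENCODE 44 sequences of the 40 transcripts in the files. Other GENCODE 44 transcripts were not searched. The files hold only 8 of 35 for LINC00665 and 3 of 10 for CNN3-DT, so further transcripts may hold these products. Among the transcripts in the files, the 3′UTR assay of GUCY1A2 reads GUCY1A2-203 alone and the last-exon assay of LINC00665 reads LINC00665-205 alone. The 3′UTR assay of GK lies in 5 of the 11 transcripts.
GUCY1A2 3′UTR, forward: tctttttgccaccttctaac
GUCY1A2 3′UTR, reverse: gaatagcagtcggctcttag
LINC00665 last exon, forward: cttgagatggagtttggttc
LINC00665 last exon, reverse: cattatggtgaaagctcctc
GK 3′UTR, forward: gaagaattcggatccttacc
GK 3′UTR, reverse: tcagtgaagatgttgctgtc
The products span 106686518 to 106686717 on chromosome 11, 36313559 to 36313747 on chromosome 19 and 30729047 to 30729246 on chromosome X. LINC00665-205 is 1557 bases in the files and 2038 in GENCODE 44, so the sequence counted may not hold the whole product. GK-208, which is among the 5 GK transcripts, has 582 and 2101 bases, so the same limit holds for it.

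The transcript read by the GUCY1A2 assay made up 53.1% of the gene's mean TPM in shDicer mRNA and 8.10% in shDicer chrRNA. For GK the 5 transcripts with the product made up 62.6 and 27.3%. For LINC00665 the share was 0 in wt and shDrosha chrRNA, 8.72% in shDicer and 12.8% in shAgo2 chrRNA, and 7.04 and 7.33% in wt and shDicer mRNA. The CNN3-DT assay, which among the transcripts in the files reads CNN3-DT-201, covered 74.9% in shDicer mRNA and 66.1% in shDicer chrRNA. CNN3-DT-201 is 952 bases in the files and 1615 in GENCODE 44, so its counted sequence may not hold the whole product. The RBP7 assay covered 100% in every group, since both RBP7 transcripts hold it. None of the study's intron assays of these genes has its whole product in a transcript of the files, and partial overlap was not examined. GK-202 ends at 30678114, inside the span of the GK intron 4 product (30678030 to 30678227).

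**Figure D5:**
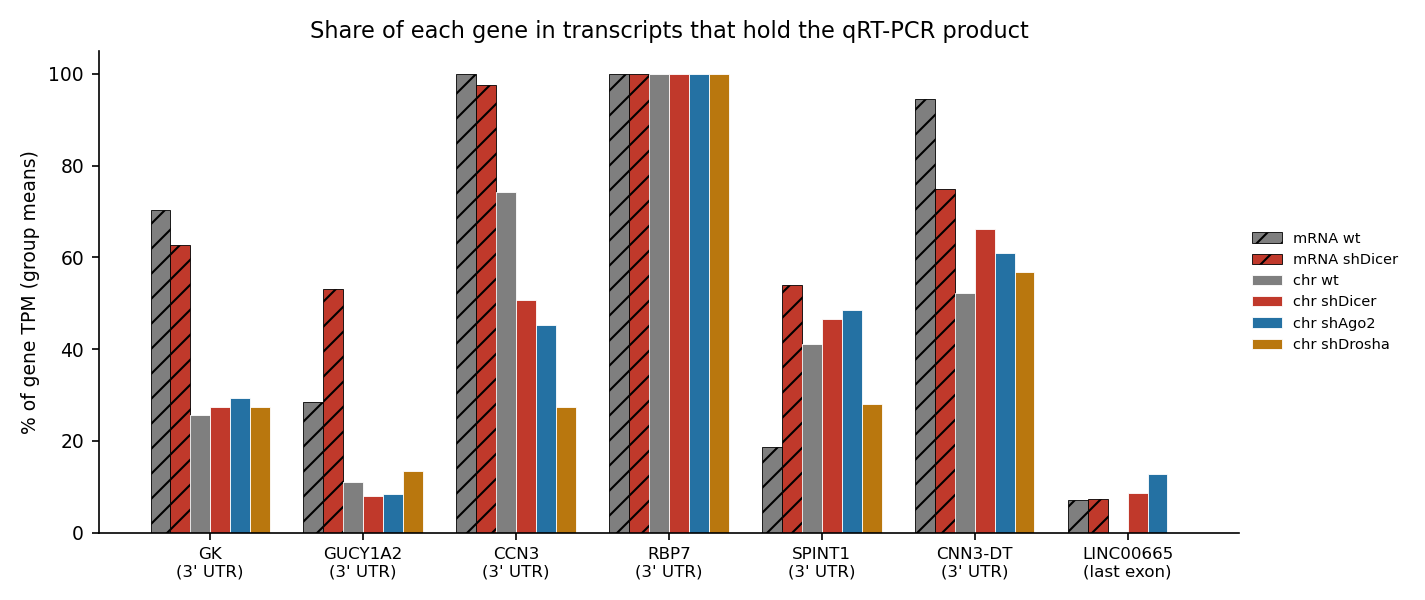
Percent of each gene's mean TPM in transcripts that hold the exon qRT-PCR product (3′UTR, or the last exon for LINC00665), for each group, with hatched bars for mRNA-seq and an axis from 0. The share is at or near 100% in RBP7, above 50% in shDicer mRNA and under 14% in chrRNA for GUCY1A2, and 0 in wt and shDrosha chrRNA for LINC00665.

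The 24 relatives and partners of the 7 genes were listed as a background. In mRNA 10 were tested and 1 was called higher, against 15.6% of all genes, and 1 lower. GUCY1A1, which encodes another alpha subunit of guanylate cyclase, rose by 1.20 and CCN1 fell by 1.46 on the log2 scale. In shDicer chrRNA 18 were tested, 4 were higher, against 11% of all genes, 1 was lower, and the median was 0.37, against 0.0072 for all genes. The 4 were CCN2, a CCN family member known as CTGF (2.28), RBP2 (0.99), CCN1 (0.70) and GUCY1A1 (0.63), and CNN2 was lower at −0.52. In shAgo2 chrRNA 3 of 18 were higher, against 12.5% of all genes, namely HGF (4.91), CCN2 (1.73) and SPINT2 (0.75), and 1 was lower. With shDrosha 0 moved past the threshold in either direction, where 1.19% of all genes were called higher. The share of all genes called lower is not given here, so the counts called lower are a description only.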

How the data were processed

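Transcript abundances of 14 libraries were used. Per the methods and labels, the authors made them with kallisto 0.43.1 in stranded mode against Ensembl 89 cDNA and non-coding RNA. The authors deposited an estimated count per transcript, without normalization, and a TPM, which is scaled by effective length and library. The labels name polyA RNA for mRNA-seq, whereas the methods name ribosomal RNA depletion. The tests hold no error of dividing shared reads between transcripts. Of 217082 transcripts, 89.2% matched GENCODE 44 (GRCh38), with 93.4 to 94.8% of counts. Positions, shared 31-base stretches and sequences come from GENCODE 44 and GRCh38, and some transcripts have another length there.

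Estimated counts were rounded, per transcript and summed per gene, and tested with edgeR 4.0.16 in R 4.3.3 (TMM, filterByExpr, quasi-likelihood, Benjamini-Hochberg over all features), mRNA-seq and chrRNA-seq in separate fits. Thresholds were adjusted p under 0.001 (mRNA-seq), 0.005 (shDicer and shAgo2 chrRNA) and 0.05 (shDrosha, usage, and mRNA against chrRNA). DESeq2 1.42.0 and limma 3.58.1 were alternatives, and scripts were tested on simulated data. Described one by one are transcripts of the 7 genes that pass the filter in at least 1 experiment and reach 10 counts in at least 1 library, with full values for at most 5 per gene. Members and lists were chosen with earlier results of these data known. Replicates differed beyond sampling noise, so none was merged. A pair of exon-join sequences of RBP7 is not reported here.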

Additional observations from a re-analysis of the deposited data

Results flagged for a closer look

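The shDicer effect differed between mRNA-seq and chrRNA-seq, by a test of the difference itself (edgeR over 14 libraries), for 3 transcripts of the 7 genes. CNN3-DT-202 passed with an adjusted p of 0.0434, from no count in wt mRNA, while it was already present in wt chromatin. LINC00665-208 passed with 0.035, at 1.99 ± 0.36 log2 units more in mRNA. LINC00665-205 passed with 0.0478 in the other direction, from no count in wt chromatin. RNA fraction, library kit, induction time and wt cell label differ together between these experiments and cannot be told apart.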

How the results depend on the processing

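Called per gene, all 7 genes kept their calls in mRNA, shDicer chrRNA and shAgo2 chrRNA under every alternative run, and none was called with shDrosha. Counts of called transcripts moved more. In mRNA the 2 calls became 1 with library size only, 1 with the unmatched transcripts kept (chosen after seeing the data), 0 with the replicate block, 12 at an adjusted p under 0.05 and 14 with DESeq2, and 0 to 0 when each replicate was left out in turn. In shDicer chrRNA the 17 calls became 6 with the replicate block and 3 in a fit of the 2 groups only, and ranged from 2 to 6 without a replicate. In shAgo2 chrRNA the 17 calls became 7 with the block and ranged from 4 to 6 without a replicate. For shDicer against shAgo2, DESeq2 called 4. The 3 transcripts that differed between mRNA and chrRNA became 0 without the low-count filter, 0 with the block, 0 at an adjusted p under 0.005 and between 0 and 3 without a replicate. For usage, limma called 1 gene in mRNA and 1 each in shDicer and shAgo2 chrRNA, LINC00665 in all 3, and 0 with shDrosha, and without a replicate the 2 calls in shDicer and in shAgo2 chrRNA ranged from 1 to 2. The cause was not tested, apart from leave-outs, which leave fewer samples. Where a chrRNA leave-out left 1 sample in a group, that sample is assumed to vary like the other groups. Of 720 recomputed single log2 fold changes that had been called, 184 fell below the threshold, 536 kept it and 0 changed direction. LINC00665-202 and LINC00665-206 passed in both knockdowns under every alternative run. Samples of the same number did not deviate together, with mean correlations of 0.0188 for mRNA wt with shDicer and 0.0292, 0.0080 and −0.039 for chrRNA wt with shDicer, shAgo2 and shDrosha, so the numbers do not pair the samples. The depth limits the transcripts near 3 counts in wt, above all SPINT1 in mRNA and RBP7-201 and LINC00665-205 on chromatin.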

Other observations

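EGFR and MET, receptor tyrosine kinases, and BCL2, an inhibitor of apoptosis, are 3 other genes for which the study's oligonucleotide list holds primers. The paper also treats EGFR and BCL2 as targets. After deletion of their predicted intron sites it reports higher nascent RNA, steady-state RNA and protein, and resistance to added tsRNA. In shDicer chrRNA all 3 were called higher, with log2 fold changes of 1.02 ± 0.15, 1.42 ± 0.10 and 0.55 ± 0.09 (SE, edgeR adjusted p = 0.000169, 7.97e-07 and 0.000331), and in shAgo2 chrRNA with 0.99 ± 0.15, 1.73 ± 0.10 and 0.60 ± 0.09. In shDicer mRNA EGFR (1.22) and MET (0.83) were called higher and BCL2 at 0.66 was not (adjusted p = 0.0117). With shDrosha none of the 3 passed, at −0.05, 0.22 and −0.03. Of all genes tested, 11% were called higher in shDicer chrRNA, 12.5% in shAgo2 chrRNA, 15.6% in shDicer mRNA and 1.19% with shDrosha.

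The study's reference genes were not level in all groups. GAPDH was higher in shDicer mRNA (0.57 on the log2 scale) and lower in shAgo2 and shDrosha chrRNA (−0.63 and −0.93), and HPRT1 was lower in shDicer mRNA (−0.52).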
